A study of Mus musculus with 24 samples.

Results

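In mammary tumours, 10 genes of VEGF-A and angiopoietin signalling, which act in blood vessel growth, were read as RNA. They were the ligands Vegfa, Vegfb and Pgf, the VEGF receptors Kdr and Flt1, the co-receptors Nrp1 and Nrp2, the angiopoietins Angpt1 and Angpt2, and the angiopoietin receptor Tek. They were chosen by symbol and not by a rule on their values, though with earlier results of these data known. Each symbol matched 1 of the 46318 gene IDs counted in every library. Of those IDs, 33552 had a read in some library and 15820 passed the filter on low counts, all 10 genes among them.

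RNA was sequenced from 24 mammary tumours of MMTV-PyMT mice, in which a mouse mammary tumour virus promoter drives the polyoma middle T oncogene in mammary epithelium. The labels name 12 tumours as KO and 12 as WT for Nr0b2, the gene of the nuclear receptor SHP, and both groups carry the PyMT transgene. Each was bulk tissue taken at a tumour volume of 2000 mm3, frozen and homogenised, so that vessels, stroma and cancer cells were read together. The comparison asks which genes differ between PyMT tumours with and without Nr0b2. The labels give neither the age nor the strain background of the mice, nor whether the 24 tumours are from 24 different animals. The tests set the difference between the labels against the spread between tumours and treat the tumours as independent. If some tumours share an animal, the p-values could be too small.

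VEGF-A is secreted by many cells, including cancer cells short of oxygen, and acts on endothelial cells mainly through the receptor kinase encoded by Kdr. The Flt1 product binds VEGF-A more tightly but signals less strongly, and it also binds the products of Vegfb and Pgf. Neuropilins, the products of Nrp1 and Nrp2, present these ligands to the receptors and also bind class 3 semaphorins. ANGPT1, made largely by mural and stromal cells, activates the endothelial receptor TIE2 encoded by Tek and steadies vessels, whereas ANGPT2, released by endothelial cells, competes for the same receptor and is associated with vessel remodelling.

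Library totals ran from 18789250 to 38022182 counted reads. Nr0b2 itself went against the labels: 12 of 12 libraries labelled KO held reads of it, 182 together, and 11 of 12 labelled WT held none. Which stretch of the gene these reads stem from cannot be seen in counts per gene, and whether the labels are right was not tested. Every direction below follows the labels as given. The epithelial markers Epcam, Krt8 and Krt18 were abundant throughout, at 795 CPM or more, 766 CPM or more and 741 CPM or more. CPM are read counts relative to library size, with library sizes scaled by the trimmed mean of M values (TMM). The endothelial markers Pecam1 and Cdh5 were present in all 24 libraries, from 17.1 to 53.4 CPM and from 13.8 to 44.4 CPM.

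A few libraries stood apart in ways that touch these genes. KO 12 held the highest Vegfa and the lowest Kdr, Nrp1, Angpt1 and Tek of all 24. In that library the deviation of a gene from its mean over the libraries fell with the gene's exon length, with a Spearman correlation across 15820 genes of -0.48, against -0.16 to 0.28 in the others. Its 6 longer endothelial markers averaged -0.30 and its 6 shorter ones 0.74 on the log2 scale, relative to the mean of the 24 libraries. KO 11 held the highest Vegfb, Nrp1 and Tek, and also the highest skeletal muscle and adipocyte scores, 6.30 and 3.82. WT 23 held the highest Pgf and Nrp2 and the lowest adipocyte score, -3.85. Over all genes tested, the log2 fold change between the labels also fell with exon length (Spearman correlation across genes -0.34), and 7 of the 10 genes are longer than the median of 3643 bases. The part of length or of neighbouring tissue in these libraries was not tested.

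Levels of different genes were compared per kilobase of exon. The 3 VEGF-type ligands were the most abundant, with medians over 24 libraries of 14.96 CPM per kb for Vegfb, 13.4 for Vegfa and 12.5 for Pgf. Angpt1 followed at 5.10 and Nrp1 at 3.09 CPM per kb. The endothelial receptors were lower, at 1.64 CPM per kb for Kdr, 1.197 for Flt1 and 1.19 for Tek, with Nrp2 at 1.48. Angpt2 was lowest, at 0.818 CPM per kb. Neighbours in this order were often not separated: Vegfb exceeded Vegfa in 13 of 24 libraries, Kdr exceeded Nrp2 in 14, and Flt1 exceeded Tek in 11. The clearest step was from Nrp1 to Kdr, where Nrp1 was higher in 23 of 24 libraries.

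**Figure D1:**
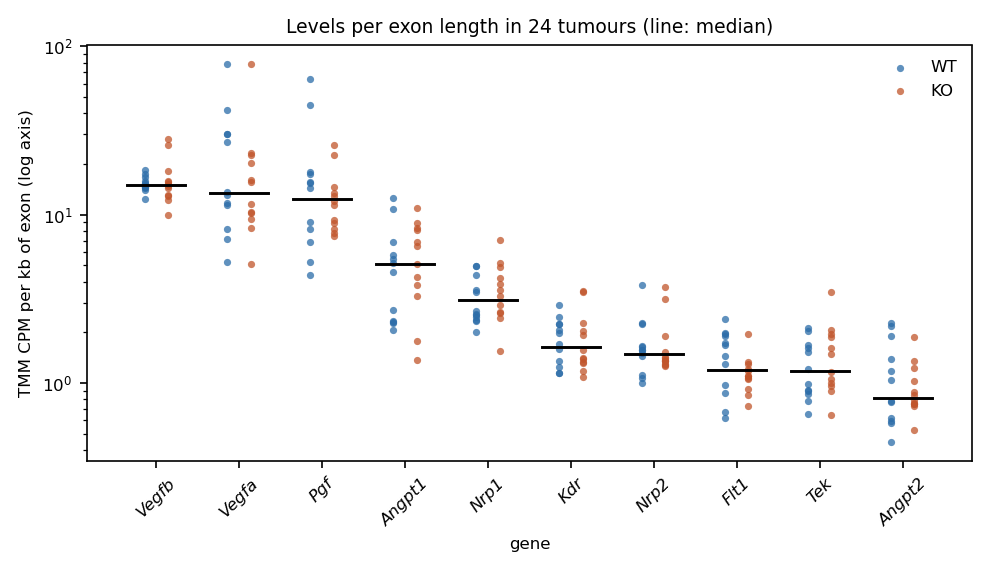
TMM CPM per kilobase of exon (log axis) of the 10 genes, ordered by their median over 24 tumours (line), with 1 point per tumour coloured by label. The 3 VEGF-type ligands have the highest medians and Angpt2 the lowest, at 0.818, and the groups overlap for every gene.

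No gene of the 10 passed the test between the labels. With edgeR's quasi-likelihood test and a Benjamini-Hochberg threshold of 0.05, 0 of 10 were called, against 50 of 15820 genes tested, or 0.316 percent. At an unadjusted p under 0.05 the count was also 0 of 10, where 18.9 percent of all genes tested passed. DESeq2, which called 2.64 percent of the genes, called none of the 10 either. Their fold changes were spread around zero, 6 above it and 4 below, with a median log2 fold change of 0.020 against 0.0075 over all genes tested. The authors' deposited table, which lists 14019 genes with 41 under an adjusted p of 0.05, also has 0 of the 10 under it. The lowest adjusted p there is 0.344, for Flt1.

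**Figure D2:**
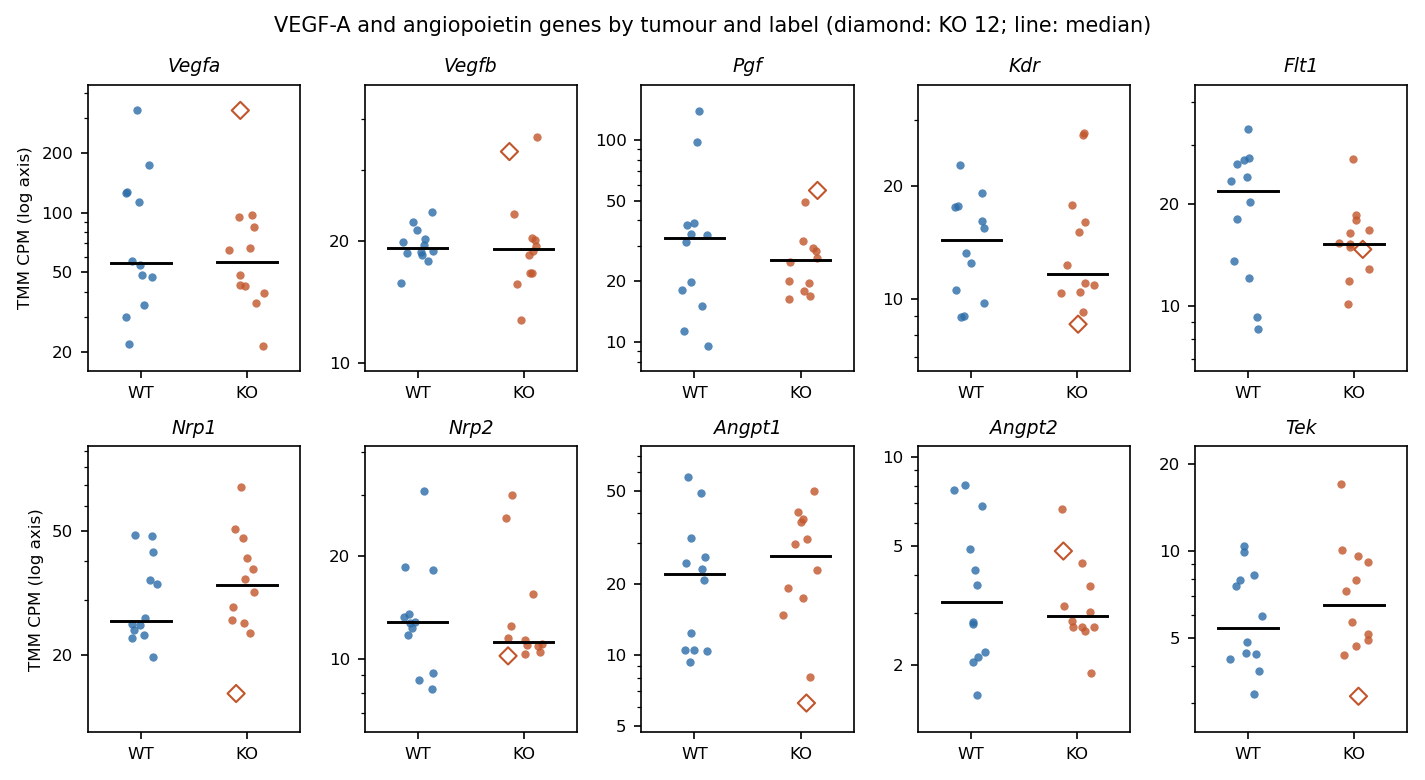
TMM CPM (log axes) of the 10 genes in each tumour by label, 12 WT and 12 KO, with the group median as a line and KO 12 as an open diamond. The groups overlap in all 10 panels, and Vegfa reaches 326 CPM in 1 tumour of each label.

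Vegfa (chromosome 17, 46327919 to 46343303, minus strand, GRCm39) was the most variable of the 10. It lay between 21.3 and 326 CPM with a median of 56.7 in the libraries labelled KO, and between 21.9 and 326 CPM with a median of 56.0 in those labelled WT. One library of each label set the top: KO 12 and WT 23 both reached 326 CPM, and the next highest were 97.4 CPM in the KO group and 174 in the WT group. The medians were nearly equal and the ranges almost the same. The log2 fold change, labelled KO minus labelled WT here and throughout, was -0.27 ± 0.44 (SE; 95% interval -1.17 to 0.64; edgeR adjusted p = 0.757). Without KO 12 it was -0.74, without WT 23 it was 0.078, and neither passed the threshold. The SD of log2 Vegfa within groups was 1.08, larger than that of 94.5 percent of the genes tested, whose median was 0.344.

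Pgf, the gene of placental growth factor (chromosome 12, 85213411 to 85224559, minus strand), lay between 16.3 and 56.2 CPM, median 25.5, in the libraries labelled KO. Those labelled WT spread further on both sides, from 9.60 to 139 CPM with a median of 32.6. All 12 KO values fell inside the WT range, and 10 of 12 lay below the WT median. For Pgf the log2 fold change was -0.53 ± 0.37 (SE; 95% interval -1.29 to 0.22; edgeR adjusted p = 0.424), and without WT 23 it was -0.18. Vegfb (chromosome 19, 6959840 to 6965019, minus strand) was the steadiest of the 10, with a within-group SD of 0.32 on the log2 scale. Its medians were both 19.2 CPM, with ranges of 12.8 to 36.1 CPM under the KO label and 15.8 to 23.6 CPM under WT. KO 11 at 36.1 and KO 12 at 33.3 CPM stood above all other libraries. For Vegfb the log2 fold change was 0.10 ± 0.13 (SE; 95% interval -0.18 to 0.37; edgeR adjusted p = 0.713), and -0.11 without those 2 libraries.

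Kdr (chromosome 5, 76093487 to 76139885, minus strand) ran from 8.56 to 27.7 CPM with a median of 11.7 in the libraries labelled KO and from 8.97 to 22.8 CPM with a median of 14.4 in those labelled WT. KO 7 and KO 11, at 27.7 and 27.4 CPM, were the 2 highest of all, while 7 of 12 KO libraries lay below the WT median. Its log2 fold change was 0.03 ± 0.21 (SE; 95% interval -0.39 to 0.46; edgeR adjusted p = 0.946). In bulk tumours, fewer endothelial cells and less RNA per endothelial cell cannot be told apart, for Kdr and for the other endothelial genes.

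Flt1 (chromosome 5, 147498414 to 147663419, minus strand) had the smallest p of the 10. Its values ran from 10.2 to 27.3 CPM, median 15.3, under the KO label and from 8.60 to 33.5 CPM, median 21.9, under WT. Of the 12 KO libraries 11 lay below the WT median, but all 12 lay inside the WT range, of which WT 19 and WT 24 lay below the lowest KO value. The log2 fold change of Flt1 was -0.34 ± 0.20 (SE; 95% interval -0.75 to 0.07), with an unadjusted p of 0.0983 and an edgeR adjusted p of 0.345. Leaving out each library in turn gave -0.44 to -0.26. Flt1 has the longest exons of the 10, 13929 bases, and with offsets for gene length its log2 fold change was -0.22 (edgeR adjusted p = 0.591).

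Neither co-receptor passed the test. Nrp1 (chromosome 8, 129085072 to 129231957, plus strand) ran from 14.996 to 69.3 CPM, median 33.4, under the KO label and from 19.6 to 48.4 CPM, median 25.7, under WT. Both ends of the KO range were set by the libraries that stand apart, KO 12 and KO 11, and 9 of 12 KO values lay above the WT median. The log2 fold change of Nrp1 was 0.21 ± 0.20 (SE; 95% interval -0.21 to 0.63; edgeR adjusted p = 0.586), 0.079 without KO 11 and 0.15 without KO 11 and KO 12. Nrp2 (chromosome 1, 62742476 to 62857851, plus strand) ran from 10.2 to 30.0 CPM, median 11.2, under KO and from 8.18 to 30.9 CPM, median 12.8, under WT. Of the KO libraries 9 lay below the WT median while KO 7 and KO 11, at 30.0 and 25.7 CPM, lay far above it. That of Nrp2 was 0.01 ± 0.22 (SE; 95% interval -0.45 to 0.46; edgeR adjusted p = 0.990).

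Angpt1 (chromosome 15, 42288063 to 42540373, minus strand) spanned 6.24 to 49.9 CPM, median 26.3, in the libraries labelled KO and 9.36 to 57.3 CPM, median 22.03, in those labelled WT. Its within-group SD of 0.92 on the log2 scale exceeded that of 91.2 percent of genes, and the KO values lay 7 above and 5 below the WT median. Angpt1 had a log2 fold change of 0.14 ± 0.34 (SE; 95% interval -0.56 to 0.84; edgeR adjusted p = 0.843), with 0.018 without KO 4 and 0.34 without WT 20. Angpt2 (chromosome 8, 18740279 to 18791578, minus strand) was scarce, at 40 to 317 reads a library. It ran from 1.88 to 6.66 CPM, median 2.91, under KO and from 1.59 to 8.04 CPM, median 3.26, under WT, with all KO values inside the WT range. Angpt2 had a log2 fold change of -0.25 ± 0.27 (SE; 95% interval -0.81 to 0.30; edgeR adjusted p = 0.613), with -0.39 without KO 7 and -0.12 without WT 18. Angpt2 lies within the span of Mcph1 on the opposite strand, with 3 exon bases in common. The count files' headers record no strand option, so any Mcph1 reads that fall on Angpt2 exons cannot be told apart from Angpt2 reads. Over all libraries Mcph1 had 10750 reads and Angpt2 2345.

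Tek (chromosome 4, 94627322 to 94763213, plus strand), the gene of the angiopoietin receptor, ran from 3.15 to 17.1 CPM, median 6.49, under KO and from 3.22 to 10.4 CPM, median 5.41, under WT. KO 11 alone stood above the WT range and KO 12 alone below it. The log2 fold change of Tek was 0.25 ± 0.25 (SE; 95% interval -0.26 to 0.76; edgeR adjusted p = 0.590). Without KO 11 it was 0.069.

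**Figure D3:**
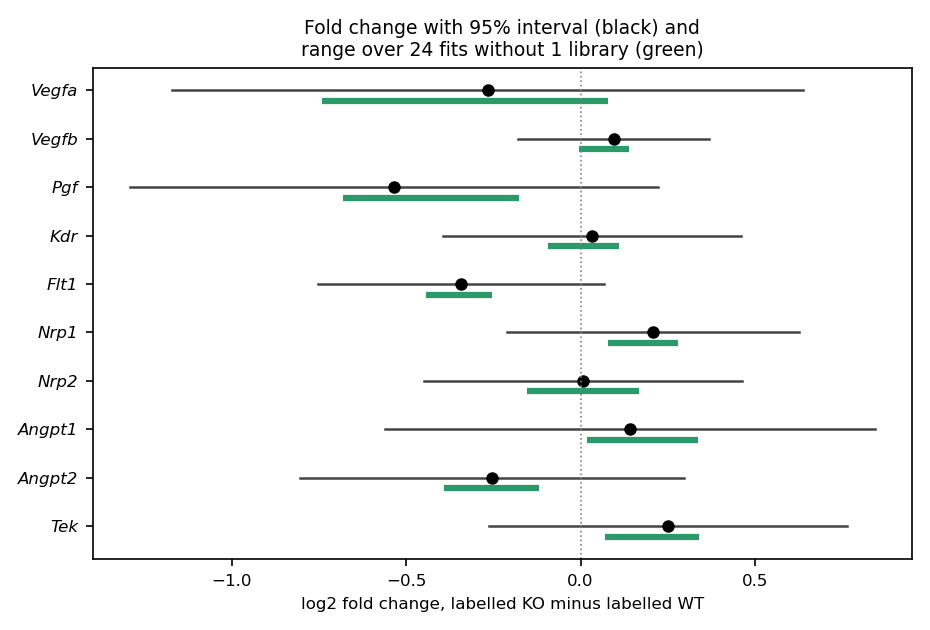
Log2 fold change, labelled KO minus labelled WT (horizontal axis), of the 10 genes from the edgeR fit (points), with the 95% interval (black) and the range over 24 fits that each leave out 1 library (green). Every 95% interval spans zero, and the widest is that of Vegfa, from -1.17 to 0.64.

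The intervals bound what these tumours could show. For Kdr the fold lay between 0.761 and 1.38, for Nrp2 between 0.732 and 1.38 and for Vegfb between 0.883 and 1.29. For Vegfa the interval was wide, from 0.444 to 1.56, and for Angpt1 it ran from 0.678 to 1.79. With adipocyte and skeletal muscle scores as covariates, 8 of the 10 log2 fold changes turned sign: Vegfa was then at 0.30, Angpt1 at -0.24 and Kdr at -0.18. None of the 10 passed the threshold in that fit.

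The balance between paired signals was compared as the log2 ratio of 2 genes in the same tumour. Angpt2 relative to Angpt1, the pair that competes for TIE2, averaged -2.75 ± 1.09 (SD, n = 12) under KO and -2.46 ± 1.33 (n = 12) under WT on the log2 scale. The ranges overlapped, from -4.18 to -0.37 and from -4.12 to -0.43, with KO 4 lowest and KO 12 highest of all. The difference was -0.30 ± 0.50 (SE; two-sided permutation test, adjusted p over 3 ratios = 0.825), with -0.52 without KO 12, -0.46 without KO 11 and KO 12 and -0.11 without WT 23. For Flt1 relative to Kdr the difference in log2 ratio was -0.25 ± 0.18 (SE; permutation test, adjusted p = 0.563), and 8 of 12 KO libraries lay below the WT median. For Vegfa relative to Pgf, both ligands of Flt1, it was -0.02 ± 0.40 (SE; permutation test, adjusted p = 0.951). None of the 3 ratios passed the permutation test between the labels.

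Within each label the genes varied with marker scores that leave them out. A score is the mean log2 CPM of a list, each gene centred on its mean over the 24 libraries. For 16 relations fixed together, 8 in each group of 12, Pearson's r and Spearman's rho were tested by permutation with 100000 resamples and adjusted over the 16. Groups were not compared with each other by a test of the difference in r.

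Vegfa followed the score of 14 other hypoxia-induced genes, among them Car9, Slc2a1 and Ldha, closely in both groups. The libraries labelled KO gave an r of 0.95 (permutation p = 3e-05, adjusted p = 0.00016; rho = 0.87, permutation p = 0.00061, adjusted p = 0.00488). Those labelled WT gave 0.95 as well (permutation p = 1e-05, the smallest possible, adjusted p = 0.00016; rho = 0.87, permutation p = 0.00037, adjusted p = 0.00488). The 2 libraries with 326 CPM of Vegfa, KO 12 and WT 23, also had the highest hypoxia scores, 1.68 and 1.16. Without the 2 libraries farthest from the median score in each group r was still 0.87 under KO and 0.91 under WT. Angpt2, another gene induced by low oxygen, followed the same score under WT (r = 0.84, permutation p = 0.00047, adjusted p = 0.00157; rho = 0.70, permutation p = 0.0139, adjusted p = 0.0319). Under KO its r was 0.34 (permutation p = 0.275, adjusted p = 0.314; rho = 0.084, permutation p = 0.799, adjusted p = 0.799).

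Kdr followed the score of 12 endothelial markers, among them Pecam1, Cdh5 and Emcn, in both groups. Under WT r was 0.85 (permutation p = 0.00049, adjusted p = 0.00157; rho = 0.83, permutation p = 0.00137, adjusted p = 0.00548), and 0.78 without WT 19 and WT 24. Under KO r was 0.82 (permutation p = 0.00127, adjusted p = 0.0032; rho = 0.64, permutation p = 0.0258, adjusted p = 0.0517), and 0.57 (permutation p = 0.0883) without KO 7 and KO 11, so that with KO 12 kept the relation no longer passed without these 2. Without KO 11 and KO 12 instead, r was 0.91 (adjusted permutation p = 0.00068). KO 12 lay off the line, with an endothelial score of 0.22 and the lowest Kdr.

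Flt1 tracked the endothelial score under WT (r = 0.93, permutation p = 2e-05, adjusted p = 0.00016; rho = 0.83, permutation p = 0.00106, adjusted p = 0.00548). Under KO its r of 0.59 missed the threshold (permutation p = 0.0395, adjusted p = 0.0632; rho = 0.43, permutation p = 0.154, adjusted p = 0.203), and without KO 7 and KO 11 it was 0.20. Tek showed the relation under KO (r = 0.74, permutation p = 0.00628, adjusted p = 0.0126; rho = 0.71, permutation p = 0.011, adjusted p = 0.0295), with r at 0.52 without KO 7 and KO 11 and 0.94 without KO 11 and KO 12. Under WT its r was 0.46 (permutation p = 0.138, adjusted p = 0.17). Angpt2 gave 0.69 under KO (permutation p = 0.0117, adjusted p = 0.0207; rho = 0.78, permutation p = 0.00377, adjusted p = 0.0121) and 0.45 under WT (permutation p = 0.137, adjusted p = 0.17). Nrp2 gave 0.78 under KO (permutation p = 0.0014, adjusted p = 0.0032), but its rho was 0.41 (permutation p = 0.177, adjusted p = 0.203) and r fell to 0.48 without KO 7 and KO 11. Under WT Nrp2 was at 0.48 (permutation p = 0.115, adjusted p = 0.167). Angpt1 showed no relation with the score of 9 pericyte and mural cell markers that passed, at r = 0.28 under KO (permutation p = 0.377, adjusted p = 0.402) and 0.12 under WT (permutation p = 0.721, adjusted p = 0.721). With the 2 most extreme scores of each group left out these were 0.39 (permutation p = 0.265) and 0.55 (permutation p = 0.102).

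**Figure D4:**
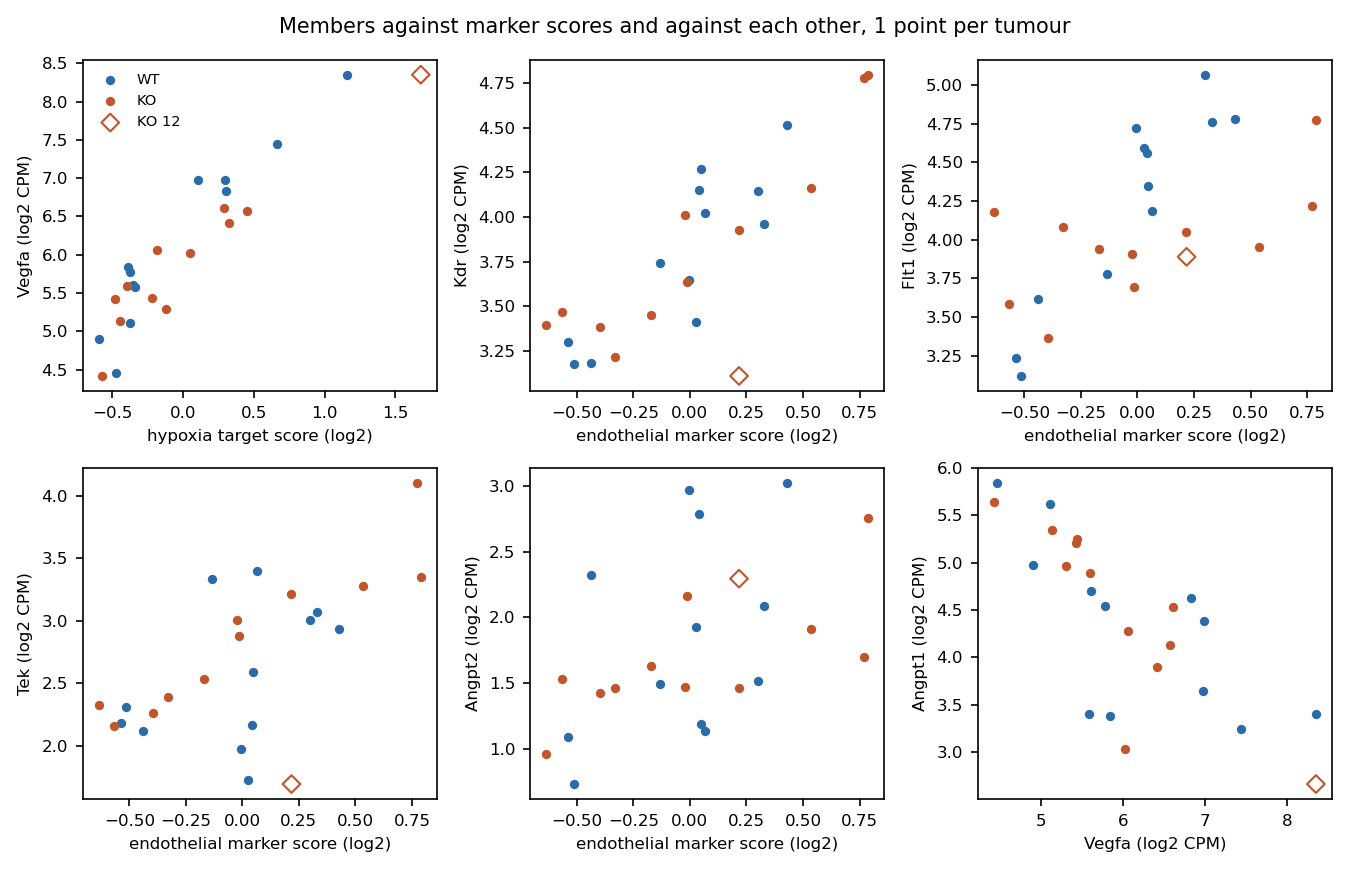
Log2 TMM CPM of Vegfa, Kdr, Flt1, Tek and Angpt2 (vertical axes) against the hypoxia or endothelial score (horizontal axes, log2 units), and of Angpt1 against Vegfa, with 1 point per tumour, WT blue, KO orange and KO 12 an open diamond. Vegfa rises with the hypoxia score in both groups (r = 0.95 in each), and KO 12 lies below the other tumours for Kdr and Tek at its endothelial score of 0.22.

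All 45 pairs of the 10 genes, and each gene with the adipocyte score, were then examined within each group, 110 relations chosen after the values had been seen. After adjustment over the 110, 7 pairs passed under KO, 6 positive and 1 negative, and 3 under WT, 2 positive and 1 negative. A single pair passed in both: Nrp1 with Tek, at r = 0.89 under KO (permutation p = 0.0003, adjusted p = 0.0055; rho = 0.81, permutation p = 0.00197, adjusted p = 0.0271) and 0.89 under WT (permutation p = 0.00016, adjusted p = 0.0044; rho = 0.91, permutation p = 9e-05, adjusted p = 0.0088). The positive KO pairs joined receptors and co-receptors: Kdr with Tek at r = 0.92 (permutation p = 1e-05, the smallest possible, adjusted p = 0.0011; rho = 0.90, permutation p = 0.00016, adjusted p = 0.0088) and Kdr with Nrp2 at 0.91 (permutation p = 0.00014, adjusted p = 0.0044; rho = 0.73, permutation p = 0.00745, adjusted p = 0.063). Kdr with Tek was at 0.92 also without KO 7 and KO 11, and Kdr with Nrp2 at 0.71. Kdr with Nrp1 was at 0.80, Nrp2 with Tek at 0.74 and Nrp1 with Nrp2 at 0.71 (permutation tests, adjusted p = 0.0132, 0.0262 and 0.0466), but their rho of 0.76, 0.66 and 0.64 did not pass (permutation tests, adjusted p = 0.0566, 0.129 and 0.129). Without the 2 libraries farthest from the median of the first gene, 5 of the 7 KO pairs had an unadjusted p under 0.05, and Kdr with Nrp1 at 0.63 and Nrp2 with Tek at 0.57 did not (permutation p = 0.0507 and 0.0751). Without KO 11 and KO 12 the 6 positive KO pairs ran from 0.60 for Nrp1 with Nrp2 to 0.87 for Kdr with Tek. Nrp1 with Tek was at 0.72, and the unadjusted permutation p of r was at most 0.0373. Their rho was 0.83 for Kdr with Tek and 0.67 for Nrp1 with Tek (permutation p = 0.00476 and 0.039). The other pairs had rho from 0.39 for Nrp1 with Nrp2 to 0.59 for Kdr with Nrp1 (permutation p = 0.263 and 0.0714), none with p under 0.05. Under WT the same Kdr with Tek pair had an r of 0.56 (permutation p = 0.0634, adjusted p = 0.183).

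Vegfa and Angpt1 ran in opposite directions. Under KO r was -0.85 (permutation p = 0.00028, adjusted p = 0.0055; rho = -0.85, permutation p = 0.00089, adjusted p = 0.0198), and -0.68 without KO 12 and KO 4, the libraries highest and lowest for Vegfa. Without KO 11 and KO 12 it was -0.74. Under WT r was -0.69 (permutation p = 0.0132, adjusted p = 0.0712; rho = -0.76, permutation p = 0.00557, adjusted p = 0.0557), which did not pass. The libraries at the ends show it: KO 12 had 326 CPM of Vegfa and 6.24 of Angpt1, WT 23 had 326 and 10.4, while WT 20 had 21.9 and 57.3 and KO 4 had 21.3 and 49.9. Vegfa also ran against Nrp1 under WT (r = -0.77, permutation p = 0.00412, adjusted p = 0.0349; rho = -0.83, permutation p = 0.00158, adjusted p = 0.0248), with -0.65 under KO (permutation p = 0.0257, adjusted p = 0.109). Pgf ran with Angpt2 under WT (r = 0.79, permutation p = 0.00233, adjusted p = 0.0235; rho = 0.78, permutation p = 0.00399, adjusted p = 0.0488), with 0.077 under KO (permutation p = 0.814, adjusted p = 0.865).

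**Figure D5:**
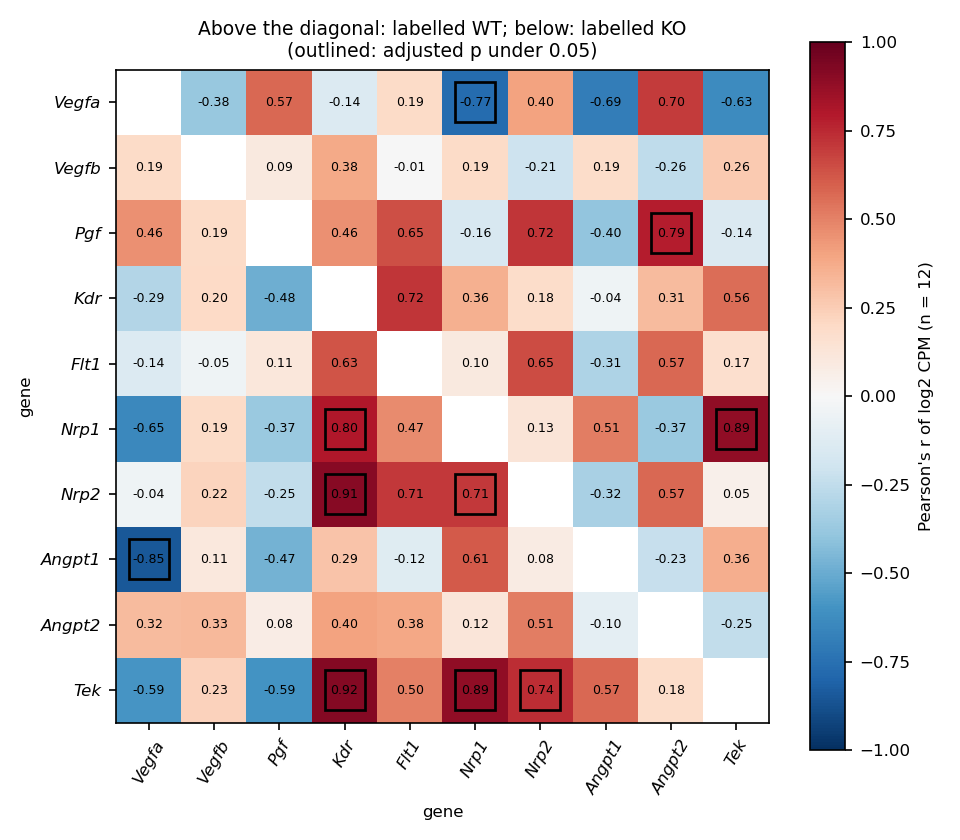
Pearson's r of log2 CPM for every pair of the 10 genes, WT above the diagonal and KO below it (n = 12 each), with adjusted p under 0.05 outlined. The 7 outlined KO pairs include 6 among Kdr, Nrp1, Nrp2 and Tek and the negative pair of Vegfa with Angpt1, at -0.85.

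Adipocyte content moved with several of these genes. The score of 7 adipocyte markers ran from -1.96 to 3.82 under KO and from -3.85 to 1.88 under WT, and Adipoq, the gene of adiponectin, was detected in every library, at 0.646 to 269.6 CPM. Vegfa fell with it under WT (r = -0.90, permutation p = 9e-05, adjusted p = 0.0044; rho = -0.84, permutation p = 0.00099, adjusted p = 0.0198), with -0.63 under KO (permutation p = 0.0257, adjusted p = 0.109). Tek rose with it in both groups, at 0.85 under KO (permutation p = 0.00058, adjusted p = 0.00797; rho = 0.77, permutation p = 0.00505, adjusted p = 0.0555) and 0.79 under WT (permutation p = 0.00235, adjusted p = 0.0235; rho = 0.84, permutation p = 0.00108, adjusted p = 0.0198). Nrp1 did too, at 0.76 under KO (permutation p = 0.0049, adjusted p = 0.0385; rho = 0.63, permutation p = 0.0304, adjusted p = 0.145) and 0.85 under WT (permutation p = 0.00039, adjusted p = 0.00613; rho = 0.87, permutation p = 0.00051, adjusted p = 0.0187). Without KO 11 and KO 12 the KO value was 0.42 for Nrp1 (permutation p = 0.221) and 0.65 for Tek (permutation p = 0.0483). The part of fat tissue in the pairs above was not tested.

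The promoters of the receptor genes are shown because Kdr and Tek moved together within the KO label and Flt1 had the smallest p of the 10 between the labels. Each line gives the 250 bases before the annotated start, 5′ to 3′, from RefSeq on GRCm38.p6. Any AGGAAG, a form of the ETS factor site, is in capitals, and the shorter ETS core GGAA was neither searched nor marked. The windows are chr5:75978456-75978705 on the minus strand for Kdr, chr5:147726012-147726261 on the minus strand for Flt1 and chr4:94739039-94739288 on the plus strand for Tek.
Kdr: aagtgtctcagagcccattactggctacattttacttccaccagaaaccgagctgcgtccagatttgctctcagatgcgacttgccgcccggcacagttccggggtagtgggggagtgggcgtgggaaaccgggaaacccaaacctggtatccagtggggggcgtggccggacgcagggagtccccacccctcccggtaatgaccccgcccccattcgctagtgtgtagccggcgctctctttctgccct
Flt1: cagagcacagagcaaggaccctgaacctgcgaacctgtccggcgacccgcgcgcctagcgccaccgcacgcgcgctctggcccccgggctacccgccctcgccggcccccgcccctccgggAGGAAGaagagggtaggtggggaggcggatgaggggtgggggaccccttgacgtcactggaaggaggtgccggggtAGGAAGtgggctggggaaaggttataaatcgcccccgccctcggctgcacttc
Tek: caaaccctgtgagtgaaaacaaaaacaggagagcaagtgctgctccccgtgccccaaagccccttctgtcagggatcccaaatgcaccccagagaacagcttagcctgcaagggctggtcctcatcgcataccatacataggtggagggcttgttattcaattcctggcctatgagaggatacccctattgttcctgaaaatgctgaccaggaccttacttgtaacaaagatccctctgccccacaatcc

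Windows were matched for 8 of the 10 genes, all but Angpt1 and Angpt2. Vegfa and Pgf have 2 windows each, of which the outermost was searched, and for Vegfa the bases after that start were not found in an annotated transcript. AGGAAG, searched on both strands, stood in 2 of the 8: in Flt1, at 129 and 53 bases before the start, and in Nrp1, at 91 bases. It stands in 29.5 percent of all 32851 windows of this length. ACGTG, a form of the core of the hypoxia response element, was also searched on both strands. It stood in 0 of the 8, or 0 of 7 without Vegfa, and in 16.6 percent of all windows. GCGTG, the other form of that core, was not searched. An absent match says only that these letters are not in the window, and a match is not evidence of a bound factor.

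The genes whose pattern was most like each of the 10 were ranked by Spearman's rho of log2 CPM, centred on the group mean, over 24 libraries. For Vegfa they were Klhdc4 at 0.92, Tpi1 at 0.91 and Stip1 at 0.90. Kdr was nearest to Fgd5 at 0.92, Pecam1 at 0.89 and Dchs1 at 0.87, and Flt1 to Pcdh12 at 0.91, Serpinh1 at 0.80 and Itga9 at 0.79. Tek was nearest to Thbd, the gene of thrombomodulin, at 0.95, Medag at 0.94 and Cd34 at 0.93. Thbd also stood second for Nrp1 at 0.92, between Fcgr2b at 0.92 and Scn7a at 0.91. Nrp2 was nearest to Dram1 at 0.82, Dlc1 at 0.75 and Fn1 at 0.74. For Angpt1 the nearest were Skint3 at 0.87, Zfhx3 at 0.86 and Lrrc75b at 0.85, and for Angpt2 Poglut2 and Scarb1 at 0.82 and Fkbp1a at 0.81. The highest rho was lower for Pgf and Vegfb than for the others: Sox8 reached 0.76, Actr3b 0.75 and Rhoa 0.74 for Pgf, while Aldh4a1, Adck1 and Rarb reached 0.72 for Vegfb.

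Other genes of the pathways were read from lists, with 0 called by edgeR in each unless stated. Of 9 tested relatives and partners of the VEGF and angiopoietin families, 6 were above zero and 3 below, with a median log2 fold change of 0.13. The smallest p belonged to Vtn, the gene of vitronectin, at 1.303 ± 0.33 (SE; edgeR adjusted p = 0.0817), higher than the WT median in 12 of 12 KO libraries. Vegfd, a ligand of lymphatic vessels, was at 0.86 ± 0.39 (edgeR adjusted p = 0.235). The 32 genes of VEGF receptor signalling had a median of 0.038, 17 above zero and 15 below. The smallest p among them belonged to Vav2, at -0.20 ± 0.08 (SE; edgeR adjusted p = 0.209) and above the WT median in 1 of 12 KO libraries. Next was Cdc42, a small GTPase of cell shape, at 0.17 ± 0.07 (edgeR adjusted p = 0.220) and above the WT median in 12 of 12 KO libraries. The 10 genes of TIE2 signalling were split 5 and 5 with a median of -0.026. The adaptor genes Dok2 and Grb14 were at 0.89 ± 0.31 and -0.46 ± 0.16, and Klf2, an endothelial flow-responsive transcription factor, was at 0.69 ± 0.24 (edgeR adjusted p = 0.154, 0.155 and 0.159).

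Tip and stalk cell genes, which set the shape of a vessel sprout through Notch, were mostly below zero. In bulk tumours their reads can also come from cells other than endothelium, and their source was not tested. Of 14 tested, 10 were below and 4 above, with a median of -0.25 and 3 at an unadjusted p under 0.05, all lower under KO, where 18.9 percent of all genes tested had such a p. The 3 were the Notch targets Nrarp at -0.95 ± 0.30 (SE; edgeR adjusted p = 0.135), Hes1 at -0.45 ± 0.17 (edgeR adjusted p = 0.180) and Hey2 at -1.21 ± 0.58 (edgeR adjusted p = 0.258). Hey1, also a Notch target and named here after its value was seen, was at 0.28 ± 0.30 (edgeR adjusted p = 0.616). Hes1 was above the WT median in 0 of 12 KO libraries. The 13 class 3 semaphorins, plexins and their partner Gipc1 had a median of -0.0039, and Plxna3 was at -0.20 ± 0.11 (edgeR adjusted p = 0.301). The 8 tested genes of hypoxia sensing had a median of -0.045, with Epas1, the gene of HIF-2 alpha, at -0.16 ± 0.15 (edgeR adjusted p = 0.574). The 14 hypoxia targets had a median of 0.23, 9 above zero and 5 below, with Car9 at -0.71 ± 0.35 (edgeR adjusted p = 0.268).

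Among 9 tested angiogenesis inhibitors, 1 passed the test, where 0.316 percent of all genes tested did. At an unadjusted p under 0.05 there were 3, all lower under KO, against 18.9 percent of all genes tested. Cnmd, the gene of chondromodulin, averaged 2.09 ± 1.02 CPM (SD, n = 12) under KO and 11.1 ± 14.2 (n = 12) under WT. Cnmd had a log2 fold change of -2.41 ± 0.53 (SE; edgeR adjusted p = 0.0446), and 0 of 12 KO libraries lay above the WT median. The call depended on single libraries: it passed in 5 of 24 fits that each left out 1 library, those without KO 3, WT 14, WT 16, WT 19 or WT 20, and the others gave an edgeR adjusted p from 0.0509, without KO 4, to 0.101, without WT 23. It also passed in 6 of 12 other settings, and under limma voom the log2 fold change was -1.13 (adjusted p = 0.250). Of the rest of the list 6 were below zero and 2 above, with Vash1, a secreted inhibitor made by endothelial cells, at -0.68 ± 0.22 (edgeR adjusted p = 0.135) and Thbs1 at -0.59 ± 0.21 (edgeR adjusted p = 0.162). The list median was -0.59.

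No vessel or mural cell marker passed the test between the labels. The 12 endothelial markers had a median log2 fold change of 0.081, 8 above zero and 4 below, with scores from -0.64 to 0.79 under KO and from -0.54 to 0.43 under WT. Cldn5, a tight junction gene, was at 0.62 ± 0.34 (edgeR adjusted p = 0.318). The 9 pericyte and mural cell markers had a median of -0.050. Notch3, a mural cell receptor, was at -0.40 ± 0.16 (edgeR adjusted p = 0.200), while Des, also a muscle gene, was at 1.88 ± 0.74 (edgeR adjusted p = 0.194). The 6 lymphatic endothelial markers had a median of 0.059, with Lyve1 at 0.86 ± 0.41 (edgeR adjusted p = 0.255).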

How the data were processed

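The 24 libraries are bulk RNA from mammary tumours, 12 labelled KO and 12 labelled WT, grouped by title. Per the file headers, the authors counted whole reads per gene with featureCounts 2.0.0 on a RefSeq annotation of GRCm39. Per the labels the kit marks strand, but those headers record no strand option. In the authors' deposited table the columns are log2 fold change, log2 CPM, an F score, a signed fold as a score, p-values and adjusted p-values. The submitters' processing notes name STAR and Subread without a version.

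Genes with few reads were removed by filterByExpr, library sizes were scaled by TMM, and 15820 genes were compared in R 4.3.3 by edgeR 4.0.16, with its two-sided quasi-likelihood test at a Benjamini-Hochberg threshold of 0.05. All 24 libraries entered with no covariate. Nr0b2 and list genes that failed the filter were added in an extended fit. Scores, ratios and correlations used log2 TMM CPM (prior count 2) and two-sided permutation tests with 100000 resamples (SciPy 1.17.1). Other settings tried were DESeq2 1.42.0, voom with quality weights in limma 3.58.1, scaling by RLE or the upper quartile, other filters and prior counts, score covariates, length and chromosome offsets, and leaving out libraries. The count fit and the permutation tests were tested on simulated data.

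The 10 genes, the 19 lists and most tests were chosen with earlier results of these data known. Named genes were the 10, Nr0b2, from each list the genes called or up to 3 with the smallest p, and 3 like genes for each of the 10. No 2 libraries of a label were near-identical: over 132 such pairs, chi-square per degree of freedom was at least 25.8. Symbols of the 10 genes came from the authors' deposited table, and gene coordinates from the count files. Depth limits Angpt2 most, at 40 to 317 reads a library.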

Additional observations from a re-analysis of the deposited data

How the results depend on the processing

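None of the 10 genes passed the threshold in any of 36 alternative settings (360 values, lowest adjusted p 0.179, for Vegfa with the hypoxia score as covariate), and 37 of the values turned sign, none of them past the threshold. With adipocyte and muscle scores as covariates the log2 fold changes were 0.30 for Vegfa, -0.041 for Vegfb, 0.0078 for Pgf, -0.18 for Kdr, -0.061 for Nrp1, -0.093 for Nrp2, -0.24 for Angpt1 and -0.11 for Tek. Without KO 11 and KO 12 they were -0.11 for Vegfb, -0.035 for Kdr and -0.075 for Nrp2. Under limma voom Vegfb was at -0.030 and Kdr at -0.033, with the endothelial score as covariate Kdr was at -0.070 and Nrp2 at -0.10, with length offsets Vegfb was at -0.036, and with upper-quartile scaling Nrp2 was at -0.0067. Leaving out each library in turn gave -0.093 to 0.11 for Kdr, -0.15 to 0.17 for Nrp2, -0.0030 to 0.14 for Vegfb (lowest without KO 11), -0.74 to 0.078 for Vegfa (highest without WT 23) and -0.19 to 0.14 for the ratio of Vegfa to Pgf. The cause of these changes of sign was not tested. The count of 50 called genes became 418 with DESeq2, 98 with the adipocyte and muscle scores, 31 without KO 11 and KO 12 (fewer libraries), and 9 (without WT 18) to 72 (without WT 14) without 1 library. Without the 2 libraries farthest from the median score, the KO correlations with the endothelial score were 0.566 for Kdr, 0.522 for Tek, 0.658 for Angpt2 and 0.479 for Nrp2, with adjusted permutation p of 0.202, 0.213, 0.100 and 0.257. That of Angpt1 with the pericyte score was -0.029 without KO 11 and KO 12 and 0.386 without the 2 farthest. No paired analysis was possible because the KO libraries are numbered 1 to 12 and the WT libraries 13 to 24, with no number in common.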

Other observations

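Most markers of other cells in the tumours had log2 fold changes above zero, with 0 genes called by edgeR in each list against 0.316 percent of all genes tested. All 9 macrophage markers were above zero, with a median log2 fold change of 0.31, and Mrc1, the mannose receptor of tissue macrophages, was at 0.71 ± 0.28 (SE; edgeR adjusted p = 0.194). The 6 T cell markers were all above zero with a median of 1.04, and 4 had an unadjusted p under 0.05, against 18.9 percent of all genes tested. High values in some KO libraries carried these means: Cd3e, named after its values were seen, averaged 1.97 ± 2.65 CPM (SD, n = 12) under KO and 1.06 ± 0.57 under WT, and 3 of 12 KO libraries exceeded the WT median. Cd2 was at 1.39 ± 0.51 (edgeR adjusted p = 0.170). Only 2 of 5 B cell markers passed the filter, with a median of 2.26, and 3 of 5 neutrophil markers, with a median of 1.09. S100a8 was at 2.49 ± 0.58 (SE; edgeR adjusted p = 0.0556), averaging 48.7 ± 99.8 CPM (SD) under KO and 8.64 ± 3.46 under WT. S100a9 and Csf3r, the other neutrophil markers tested, were at 1.09 ± 0.55 and 0.047 ± 0.19 (SE; edgeR adjusted p = 0.283 and 0.916). The 9 fibroblast markers had a median of 0.39, 7 above zero and 2 below, and the 8 luminal epithelial markers a median of 0.17, 7 above zero and 1 below. The 7 adipocyte and 6 tested skeletal muscle markers were all above zero, with medians of 1.22 and 2.33, and the muscle score ran from -5.15 to 6.30 under KO and from -5.37 to 2.94 under WT.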
